A study of Mus musculus with 81 samples.

Results

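The genotype by diet interaction in CA1 pyramidal neurons (PNs) is, for each gene, the trisomic minus disomic difference in offspring of choline-supplemented dams less the same difference in offspring of choline-normal dams. It was measured in 27 of the 81 libraries of the series, which are all the CA1 libraries, in 1 model with 4 group means. Each library held RNA of cells that were taken as CA1 PNs by Nissl staining and cut from rostral sections of 1 brain by laser capture, and it was sequenced as total RNA. The mice were 6 months old (6 MO) males of the Ts65Dn colony, either trisomic (Ts) or disomic (2N), from Ts65Dn mothers and fathers that were C57Bl/6J Eicher × C3H/HeSnJ F1 mice. Breeders were given a diet with 1.1 g/kg choline chloride (choline normal, ChN) or 5.0 g/kg (choline supplemented, ChP), pups stayed on their dam's diet from conception to weaning, and every mouse ate the control diet afterwards. The groups were 2N ChN with 6 mice, Ts ChN with 5, 2N ChP with 7 and Ts ChP with 9, and since the labels do not say which mice shared a dam, all errors are those between mice and not between the dams that received the diets.

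As background, Ts65Dn mice carry a small extra chromosome that triplicates a stretch of mouse chromosome 16 (Mmu16) syntenic to human chromosome 21, including App and Dyrk1a, and also a stretch of mouse chromosome 17 (Mmu17) that is not syntenic to it, so differences in this model cannot be given to either stretch alone. Choline is a precursor of phosphatidylcholine and of the transmitter acetylcholine, and after oxidation to betaine it donates a methyl group to homocysteine, which is then remade into methionine. CA1 PNs are the main output neurons of the hippocampus, and they receive acetylcholine from basal forebrain neurons that degenerate in Ts mice. An interaction asks whether the maternal diet altered the distance between the genotypes, and its sign does not say which genotype moved. A positive value is written here where Ts minus 2N was higher on ChP than on ChN, and a negative value where it was lower, all on the log2 scale of CPM, the count of a gene scaled to a library total that is the same for all libraries.

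The summed expected counts of a library lay between 645483 and 1918846, with the widest span in Ts ChP. The defining markers of excitatory neurons were high in all 27 libraries, with a mean of their log2 CPM between 8.17 and 9.03, and none of the 5 red blood cell markers was high enough to be tested. Of 7 microglia markers tested 1, Cx3cr1, had an interaction with an unadjusted p under 0.05 (−1.28, SE 0.57, unadjusted p = 0.0305, mean 4.28 CPM), and the mean log2 CPM of the 7 was 1.23 to 2.36 in 2N ChN, 1.98 to 2.32 in Ts ChN, 1.76 to 2.47 in 2N ChP and 1.70 to 2.40 in Ts ChP. The part of microglial RNA in the results below was not tested. Markers of CA2 pyramidal neurons, which adjoin CA1, were high in 10 libraries, with a mean log2 CPM of 5.73 to 7.89 against 1.73 to 3.23 in the others, and these 10 were 2 of 6 2N ChN, 1 of 5 Ts ChN, 3 of 7 2N ChP and 4 of 9 Ts ChP libraries. The mean of the 6 CA1 markers was 2.60 in mouse 17-21 (2N ChN) and 2.51 in mouse 16-272 (Ts ChP), against 4.71 or more in the rest. In these 2 libraries the CA2 markers, at 7.89 and 7.39, were above the CA1 markers, which goes against their label. Mouse 15-336 (2N ChP) had a CA2 mean of 7.66, and the CA1 mean in that group ran from 4.71 to 7.67. The mean of 4 CA3 markers varied widely too. It ran from 1.72 to 5.18 in 2N ChN, 1.59 to 4.68 in Ts ChN, 1.03 to 5.74 in 2N ChP and 1.89 to 6.71 in Ts ChP. The part of CA3 RNA in the results below was not tested. The mean of 63 triplicated Mmu16 genes was 5.31 to 5.64 in the 14 Ts libraries and 4.92 to 5.17 in 12 of the 13 2N libraries, while the library labelled 2N of mouse 17-154 stood at 5.58, inside the Ts range. The CA3 and dentate gyrus (DG) libraries of that mouse stood at 4.81 and 5.22, inside the 2N ranges there. The library was kept under its label.

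**Figure D1:**
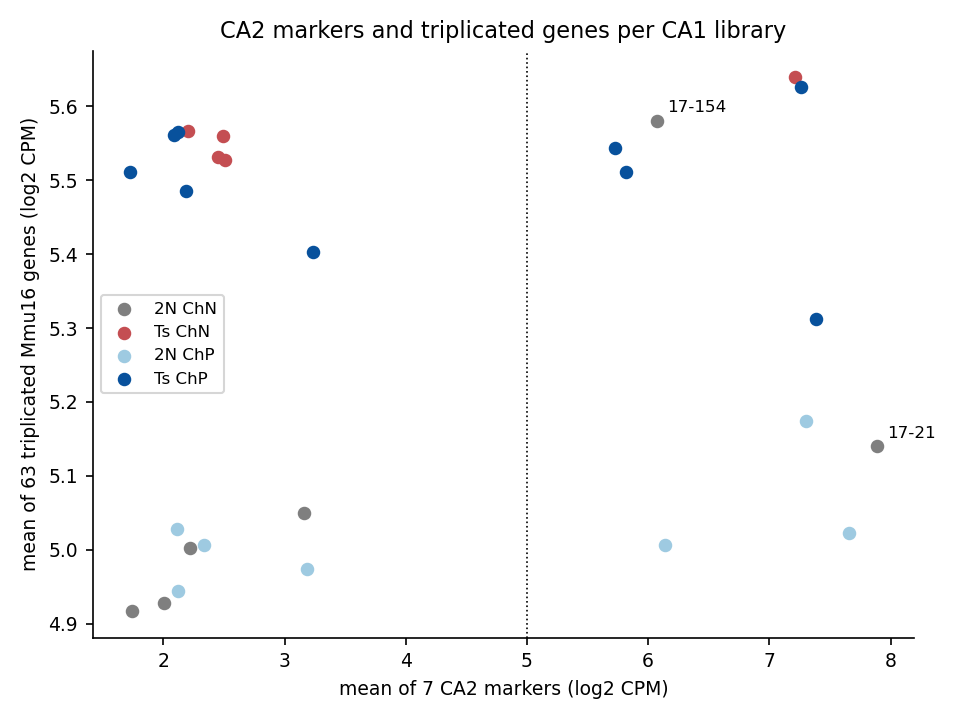
Each point is 1 of the 27 CA1 libraries, with the mean log2 CPM of 7 CA2 markers on the horizontal axis and the mean log2 CPM of 63 triplicated Mmu16 genes on the vertical axis, and the dotted line marks a CA2 mean of 5. 10 libraries from all 4 groups lie right of the line, and the library labelled 2N of mouse 17-154 lies at 5.58 among the Ts libraries.

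The interaction was small against the spread between libraries, 1 per mouse, for nearly every gene. In a multidimensional scaling of the CA1 libraries, which places like libraries near each other, the first dimension held 32.2% of the variance. Its Spearman correlation with the CA2 marker mean was 0.92. With 1 library per mouse, the CA2 signal and other differences between mice cannot be told apart in this spread. Of 16225 genes tested, 523 (3.22%) had an unadjusted p under 0.05 and are called here, 276 positive (1.70%) and 247 negative (1.52%), which is fewer than the 5% that this threshold passes when no gene differs. Without the library labelled 2N of mouse 17-154, 461 genes were called. No gene passed after Benjamini-Hochberg adjustment in edgeR's quasi-likelihood test, where the smallest adjusted p was 0.999877, nor in DESeq2, which called 416 genes, or limma-voom, which called 602. An unadjusted p under 0.01 was reached by 82 genes and one under 0.001 by 3. The 523 genes are therefore described below as the largest differences of this contrast relative to their spread, none of which can be told from the errors of a search across all genes.

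What the libraries could resolve depended on the level of the gene. Among the 2080 genes with a mean of 100 CPM or more, the median standard error (SE) of the interaction was 0.18 and the median 95% confidence interval reached 0.36 to either side, and 37 genes were called. At 10 to 100 CPM the interval reached 0.60, at 1 to 10 CPM 1.63, and under 1 CPM 2.73. Called genes had a median absolute interaction of 0.40 at 100 CPM or more and of 3.34 under 1 CPM, where 5.71% were called. Genes under 10 CPM are for that reason named below only as members of a list or of the snoRNA class.

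Called genes were mostly those whose genotype difference pointed in opposite directions on the diets. The estimates had opposite signs in 493 of the 523, as the selection on a large difference of differences favours. Among them, 260 were lower in Ts on ChN and higher in Ts on ChP, and 233 were higher in Ts on ChN and lower in Ts on ChP. The larger of the 2 genotype differences was the one on ChN for 354 genes and the one on ChP for 169. The genotype difference itself had an unadjusted p under 0.05 on ChN for 222 of the called genes, on ChP for 124, on both diets for 9 and on neither for 186.

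**Figure D2:**
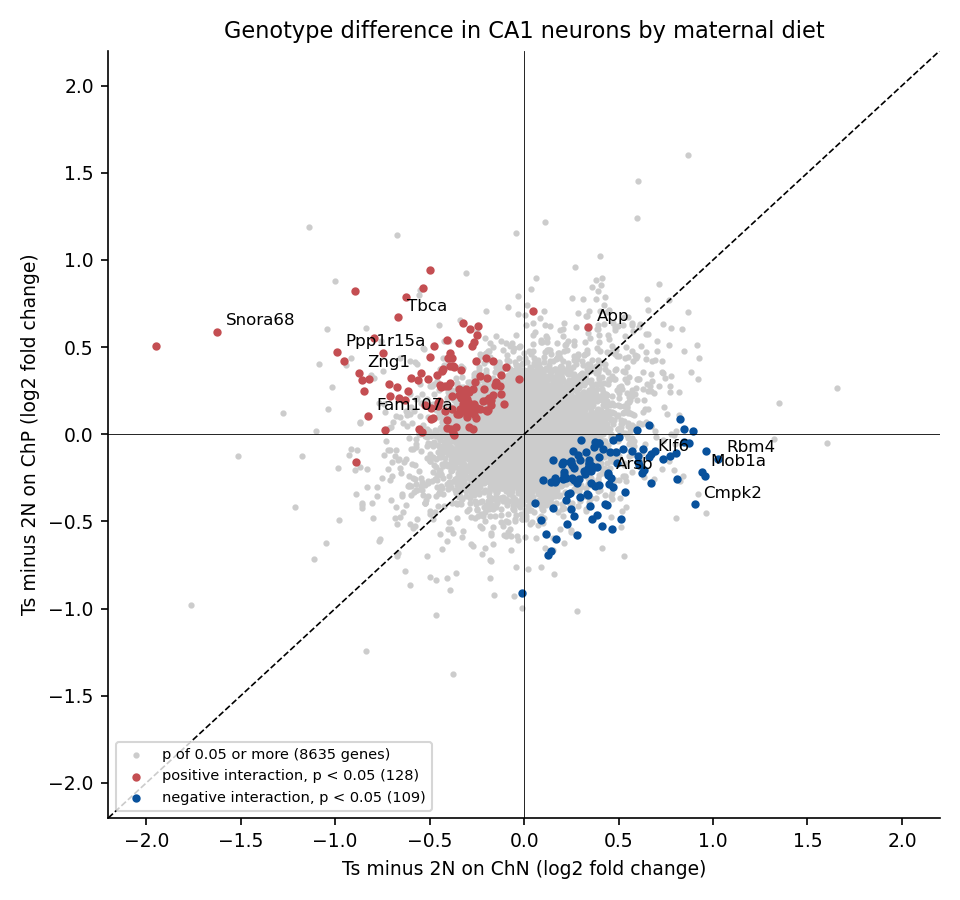
Each point is 1 of 8872 genes with a mean of at least 10 CPM, with the log2 fold change (LFC) of Ts against 2N on ChN on the horizontal axis and that on ChP on the vertical axis, and the dashed line marks equal values. The 128 genes with a called positive interaction (red) lie above the line and the 109 with a called negative one (blue) below it, and 2 genes lie outside the axes.

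The smallest p of all genes belonged to Snora68, a box H/ACA small nucleolar RNA (snoRNA). Box H/ACA snoRNAs pair with ribosomal RNA and direct the change of chosen uridines to pseudouridine. The annotated gene covers 131 bases at chr8:71348403-71348533 on the minus strand of GRCm39. Its sequence is shown because this was the one gene that passed adjustment in any setting tried, and the capitals mark a match to the H box letters ANANNA from base 59 and the letters ACA that end 3 bases before the 3′ end.

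Snora68: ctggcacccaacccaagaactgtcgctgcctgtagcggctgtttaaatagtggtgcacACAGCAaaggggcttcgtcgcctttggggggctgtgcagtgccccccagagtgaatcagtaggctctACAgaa

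The letters were searched on the transcribed strand only, and both together were found in 41.9% of the 167 snoRNA genes tested and in 2.06% of windows of the same length on the plus strand of chromosome 8. The H box letters alone were found in 94.0% of the snoRNA genes and 88.4% of the windows, so that match says little by itself. The level of Snora68 was 8.32, 19.4 and 29.3 CPM (lowest, median, highest) in 2N ChN and 2.32, 3.02, 6.10, 8.69 and 9.55 CPM in the 5 Ts ChN libraries, so those groups met only at their edges. It was 3.58, 6.84 and 16.8 CPM in 2N ChP and 7.396, 14.7 and 20.7 CPM in Ts ChP, which overlapped widely. The order of the genotypes was thus 2N over Ts on ChN and Ts over 2N on ChP, with means of 19.3 ± 7.52 (SD, n = 6), 5.94 ± 3.25 (n = 5), 9.14 ± 5.37 (n = 7) and 13.8 ± 4.91 (n = 9). The interaction was 2.21 (SE 0.50, 95% confidence interval 1.20 to 3.23, unadjusted p = 8.12e-05, adjusted p = 0.999877 in edgeR), from an LFC of −1.62 on ChN and 0.59 on ChP. With the 10 CA2-rich libraries left out the adjusted p was 0.0314, and with the library labelled 2N of mouse 17-154 left out and the CA2 marker mean as a covariate it was 0.0175, both choices made after the data were seen.

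The snoRNA, small nuclear RNA (snRNA) and ribosomal RNA (rRNA) genes leaned to a positive interaction. These classes were noticed after the values were seen. Members of a class were measured in the same 27 libraries, so their estimates are not independent and the counts below are only descriptive. Of 167 snoRNA genes tested, 134 had a positive estimate, with a median of 0.72, against 8007 of 16225 and a median of −0.01 over all genes. 20 snoRNA genes were called (12%), 19 positive and 1 negative, where 3.22% of all genes were called. Without the library labelled 2N of mouse 17-154, 144 of 165 snoRNA genes were positive, with 19 called, all positive. That library had the lowest summed snoRNA level of 2N ChN (724 CPM), so leaving it out favours a positive value. Of the spliceosomal and related snRNA genes 41 of 51 were positive (median 0.80, 6 called positive and 1 negative), and of the rRNA genes 29 of 29 (median 1.57, 8 called positive). These snRNA and rRNA genes were at low levels, with medians of 2.80 and 2.66 CPM. The smaller miRNA and miscellaneous RNA classes leaned to positive values too, with 9 of 11 (median 1.12) and 14 of 18 (median 0.81) positive. The small Cajal body RNA genes, which are related to snoRNAs, did not lean that way, with 8 of 15 positive (median 0.03) and none called in edgeR at an unadjusted p under 0.05. Protein-coding genes had 6402 of 12849 positive and 2.80% called, and lncRNA genes 3.60% called. Transcript models still to be tested by experiment leaned to negative values, with 454 of 1145 positive (median −0.22).

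Most called snoRNA genes were at a low level. Snord118, which is needed to process the precursors of large-subunit rRNA, had group means of 3.35, 0.80, 3.43 and 4.29 CPM in 2N ChN, Ts ChN, 2N ChP and Ts ChP and an interaction of 2.22 (SE 1.01, unadjusted p = 0.0343). Snora74a averaged 19.6 CPM, with an interaction of 1.44 (SE 0.57, unadjusted p = 0.0173). Snord14c had 1.85 (SE 0.83), Snord60 2.198 (SE 0.87) and Snord68 2.60 (SE 1.04). The negative one, Gm25314, averaged 0.58 CPM and lies at chr7:59021723-59021801 among Gm25156, Gm25229 and Gm26337, 3 positive ones, and 8 of the 20 have another tested snoRNA gene of their length that is over 80% identical in sequence, so that the sharing of reads between copies is uncertain.

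The summed level of the 167 snoRNA genes was 724, 1515 and 2212 CPM (lowest, median, highest) in 2N ChN, and 414, 1428 and 1481 CPM in Ts ChN. On ChP it was 728, 1730 and 2317 CPM in 2N and 860, 1462 and 2915 CPM in Ts. The means were 1498 ± 603 in 2N and 1097 ± 493 in Ts on ChN, and 1580 ± 605 in 2N and 1537 ± 607 in Ts on ChP (SD). The 4 groups overlapped. By the means Ts lay further below 2N on ChN than on ChP, and by the medians further below on ChP. In Ts ChN the lowest sums were those of mice 16-357 (414 CPM) and 17-157 (729 CPM), and the others were 1428, 1432 and 1481 CPM. The joint part of these low libraries in the lean of the class was not tested. The 18S rRNA gene Rn18s-rs5, which a total RNA library keeps in part, stood at 22597, 36564 and 59190 CPM in 2N ChN, at 16996, 32366 and 36034 (lowest, median, highest) in Ts ChN, at 13371, 19991 and 52502 in 2N ChP and at 25134, 43092 and 58388 in Ts ChP (interaction 0.98, SE 0.43, unadjusted p = 0.0333). The level of this rRNA moved in the same direction as the short RNA classes, and its part in them was not tested.

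**Figure D3:**
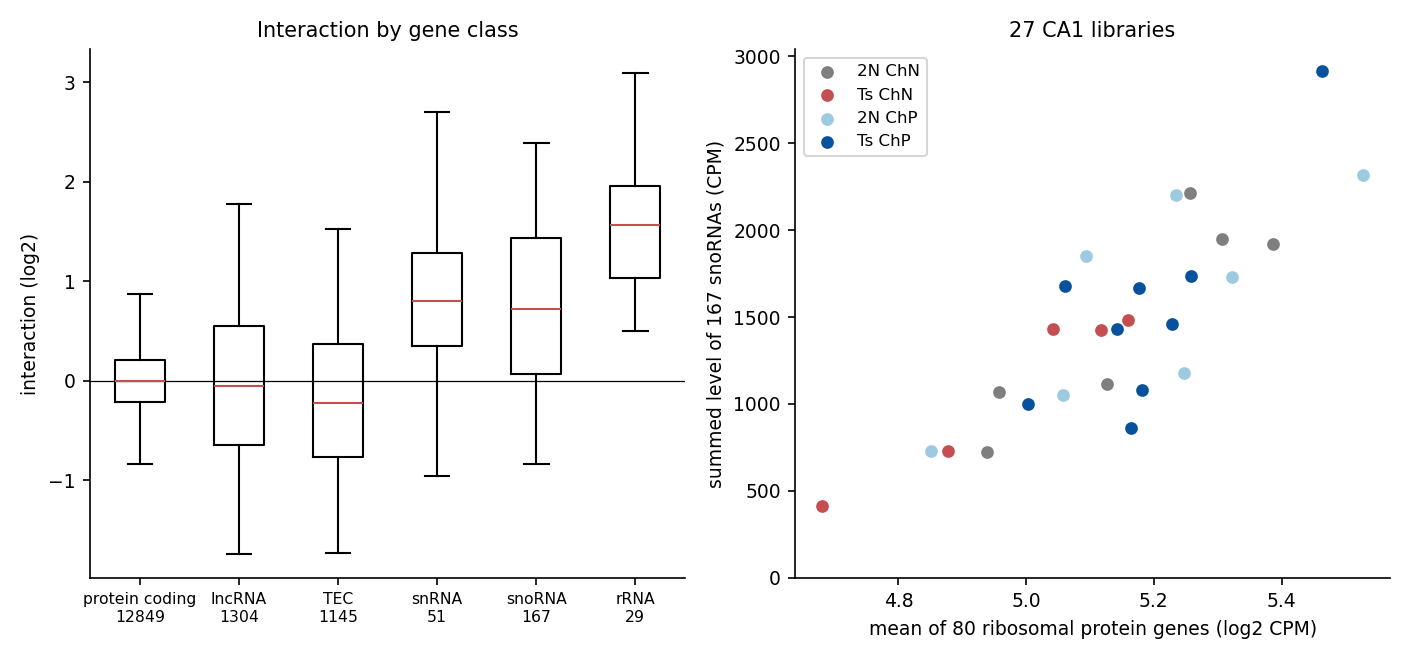
Left, the interaction (log2) of all genes tested of 6 classes, with the median, the quartiles and the 5th to 95th percentile, and the number of genes under each name. Right, the summed CPM of 167 snoRNA genes against the mean log2 CPM of 80 ribosomal protein genes in the 27 libraries, where the 4 groups overlap and the highest sum is 2915 CPM in a Ts ChP library.

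In CA3 PNs 67 of 108 snoRNA genes tested were positive (median 0.22, 4 called, all positive), and in DG granule cells 40 of 140 (median −0.42, 1 called positive and 9 negative). The median of the class in the granule cells had the opposite sign to that in CA1.

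Among genes with a mean of at least 10 CPM, 237 of 8872 (2.67%) were called, and the 12 with the smallest p in each direction were taken for closer description. They include Snora68, and the other 23 had adjusted p-values of 0.999877 in edgeR too. Being chosen by p, they are a description. The 11 other positive ones were lower in Ts on ChN and higher in Ts on ChP by their estimates, and the 12 negative ones the reverse.

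After Snora68, the largest positive interaction among them was that of Ppp1r15a (GADD34, chr7:45172340-45175692), a stress-induced subunit that brings protein phosphatase 1 to eIF2α and so restores translation. It stood at 11.3, 16.8 and 20.7 CPM (lowest, median, highest) in 2N ChN and at 4.63, 7.05, 7.83, 10.2 and 10.4 CPM in the 5 Ts ChN libraries. On ChP it stood at 4.37, 6.83 and 13.4 CPM in 2N and at 5.47, 9.58 and 16.3 CPM in Ts. The genotypes were apart on ChN, with every Ts library below every 2N library, and overlapped on ChP (interaction 1.46, SE 0.41, unadjusted p = 0.00103). The level of 2N ChP (7.68 ± 3.58, SD, n = 7) was near that of Ts ChN (8.02 ± 2.39, n = 5) and below that of 2N ChN (16.2 ± 3.80, n = 6).

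Tbca, a chaperone of β-tubulin folding, had an interaction of 1.34 (SE 0.38, unadjusted p = 0.00131), with means of 14.1 and 8.99 CPM in 2N and Ts on ChN and 9.21 and 14.5 CPM on ChP. Stmn1 (stathmin, chr4:134195021-134201882), which binds tubulin dimers and destabilises microtubules, stood at 37.2, 42.6 and 47.6 CPM in 2N ChN, against 18.3, 21.1, 30.5, 36.3 and 37.4 CPM in Ts ChN. In 2N ChP it stood at 15.9, 27.3 and 37.8 CPM and in Ts ChP at 19.2, 36.1 and 52.6 CPM. The 2N ChN mice had the highest median and the narrowest range, and that range overlapped each of the other 3 (interaction 0.87, SE 0.28, unadjusted p = 0.0041). Fam107a, an actin-associated protein raised by stress, had 0.93 (SE 0.28, unadjusted p = 0.00182), and its 5 Ts ChN values of 23.5 to 36.4 CPM lay under the 2N ChN range of 38.5 to 85.7 CPM.

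Rbm17 (SPF45), a splicing factor that acts on 3′ splice sites, had an interaction of 0.83 (SE 0.25, unadjusted p = 0.00215), and its means were 63.6 and 41.1 CPM in 2N and Ts on ChN and 44.4 and 50.6 CPM on ChP. Prpf6, which bridges the U5 and U4/U6 particles of the spliceosome, had 0.53 (SE 0.18, unadjusted p = 0.00528). Psmd6, a subunit of the proteasome lid, had 0.50 (SE 0.17, unadjusted p = 0.00497), with 2N and Ts means of 86.2 and 69.6 CPM on ChN and 69.5 and 79.7 CPM on ChP. The rest were Zng1, a zinc chaperone GTPase (1.22, SE 0.36), Rap2c, a Ras-like GTPase (0.86, SE 0.29), Evi5l, a Rab GTPase-activating protein (0.57, SE 0.18), and Smc1a, a core subunit of cohesin (0.55, SE 0.17).

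**Figure D4:**
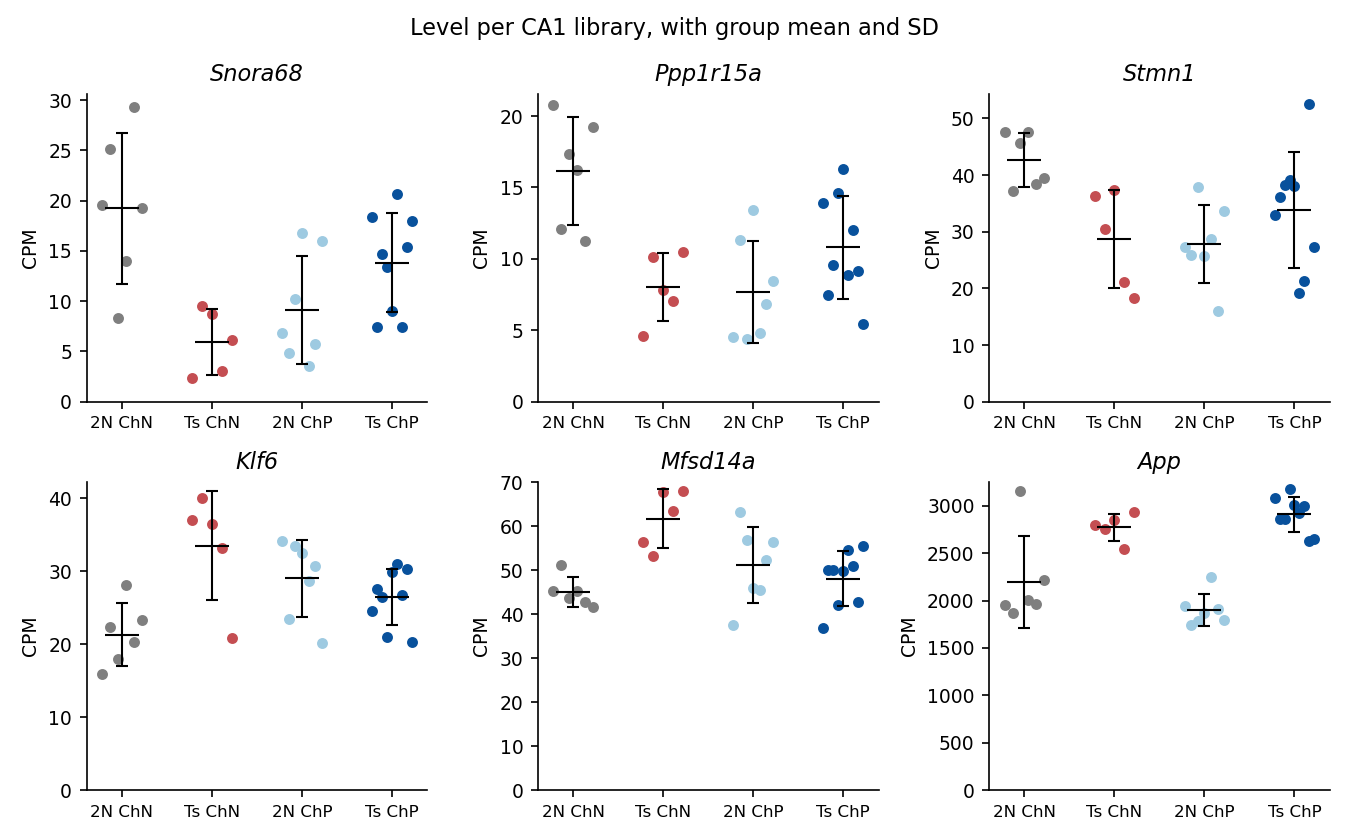
CPM per CA1 library for 6 genes in the 4 groups (points), with the group mean and SD as bars. For Ppp1r15a the 2N ChN points (11.3 to 20.7 CPM) lie above all Ts ChN points (4.63 to 10.4 CPM), for Mfsd14a the 2N ChN points (41.5 to 51.2 CPM) lie below them (53.1 to 67.9 CPM), and on ChP the genotypes overlap in every panel but that of App.

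Klf6 had the smallest p of the negative genes. It encodes a zinc finger transcription factor induced by injury and lies at chr13:5911481-5920393. It stood at 15.9, 21.3 and 28.1 CPM in 2N ChN and at 20.9, 33.2, 36.5, 37.1 and 40.0 CPM in Ts ChN. It stood at 20.2, 30.7 and 34.2 CPM in 2N ChP and at 20.3, 26.8 and 31.0 CPM in Ts ChP. All but 1 of the Ts ChN values were above the 2N ChN range, while the ChP groups covered nearly the same range (interaction −0.79, SE 0.25, unadjusted p = 0.00282).

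Mfsd14a, a transporter-like membrane protein of the major facilitator family, separated the genotypes on ChN at 41.5 to 51.2 CPM in 2N against 53.1 to 67.9 CPM in Ts, and had an interaction of −0.55 (SE 0.18, unadjusted p = 0.0047). Fbxo42, a substrate adaptor of an SCF ubiquitin ligase, did so as well at 25.6 to 38.5 CPM in 2N and 40.1 to 53.0 CPM in Ts (−0.66, SE 0.21). Arsb, the lysosomal arylsulfatase B, had 53.7, 84.4 and 118 CPM in 2N ChN against 109, 112, 113, 116 and 128 CPM in Ts ChN, and its ChP means were 115 ± 26.2 in 2N and 97.7 ± 17.3 in Ts (−0.68, SE 0.21, unadjusted p = 0.00306). Ts ChN was the tightest group for Arsb, with an SD of 7.46 CPM.

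The remaining negative genes included Cmpk2, a mitochondrial nucleotide kinase that interferon induces (−1.30, SE 0.42, unadjusted p = 0.00334), with means of 9.37 and 17.9 CPM in 2N and Ts on ChN and 13.8 and 10.2 CPM on ChP. Of 24 interferon response genes tested none was called in edgeR at an unadjusted p under 0.05, and 13 were positive (median 0.08). Lrfn4 (SALM3), a synaptic adhesion molecule that binds presynaptic receptors, had −0.89 (SE 0.30, unadjusted p = 0.00476), with 13.0 to 21.3 CPM in 2N ChN and 20.9 to 30.2 CPM in Ts ChN. Rbm4, an RNA-binding regulator of splicing, had −1.16 (SE 0.39), Mob1a, a co-activator of the Hippo kinases LATS, −1.16 (SE 0.41), Zfp74, a zinc finger protein, −0.84 (SE 0.29), Leng8 −0.55 (SE 0.19), Ttc13 −0.53 (SE 0.19), and Gm37899, a transcript model of the class still to be tested by experiment, −0.76 (SE 0.27). The annotated spans of Rbm4 and Gm37899 overlap other tested genes on their own strand, Gm21992 and B830012L14Rik, and Lrfn4 lies on the opposite strand inside Pcx, so reads of these pairs may be divided between them.

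Of the 24 genes, all stayed called when any 1 of the 27 libraries was left out. Their choice by the smallest p in the same libraries favours this, so it does not show that they are stable. Without the 10 CA2-rich libraries 5 lost the call, which were Tbca (0.77, unadjusted p = 0.123), Rap2c (0.48, 0.156), Psmd6 (0.37, 0.0736), Lrfn4 (−0.67, 0.054) and Gm37899 (−0.39, 0.146), each of which kept its sign. That fit had 17 libraries, and whether the CA2 signal or the smaller number moved them was not tested.

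Most triplicated genes had higher estimates in Ts than in 2N on each diet. Of 63 triplicated Mmu16 genes, 61 had a positive LFC on ChN, 61 on ChP and 59 on both. The exceptions were Adamts1 and Mis18a on ChN and A630089N07Rik and Lca5l on ChP, and none of these 4 negative values was called. The genotype difference was called in the positive direction for 31 of the 63 on ChN and for 42 on ChP, beside 364 and 386 of all 16225 genes. Without the library labelled 2N of mouse 17-154 it was called so for 39 and 44 of the 63, beside 351 and 417 of 16075 genes. The median LFC was 0.45 on ChN and 0.48 on ChP, and without the library labelled 2N of mouse 17-154 it was 0.57 and 0.49. Their interactions had a median of 0.07 against −0.01 for all genes, 40 of 63 were positive, and 1 was called. For 17 of the 63 the 95% confidence interval lay within the log2 of 1.5 (0.58), the step that 1 more gene copy adds, on either side of 0, and for the others these libraries do not exclude an interaction of that size. Dyrk1a, a kinase of the triplicated stretch, had −0.13 (95% confidence interval −0.46 to 0.20), Sod1, the cytosolic superoxide dismutase, 0.21 (−0.22 to 0.65), Rcan1, an inhibitor of calcineurin, −0.22 (−0.88 to 0.43) and Kcnj6, a G protein-gated potassium channel, 0.17 (−0.17 to 0.51). Synj1, a phosphatase of synaptic vesicle recycling, had 0.17 (−0.11 to 0.45) and Itsn1, an endocytic scaffold, 0.30 (−0.30 to 0.91). Ttc3 had 0.11 and Son 0.07. Of the 20 triplicated Mmu17 genes none was called in edgeR, also at an unadjusted p under 0.05, and the median was −0.01. Pcp4 is on Mmu16 and is a CA2 marker. The paper counts it among the triplicated genes, but it was not in the Mmu16 list used here. Its interval of −3.43 to 4.94 gives no information.

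App (chr16:84746573-84971126), which encodes the amyloid precursor protein, was the called member. In 2N ChN it stood at 1865, 1956, 1968, 2009, 2213 and 3155 CPM, the last in the library labelled 2N of mouse 17-154. The Ts ChN libraries stood at 2549, 2759, 2795, 2845 and 2930 CPM. On ChP the 2N libraries stood at 1741, 1864 and 2244 CPM (lowest, median, highest) and the Ts libraries at 2629, 2928 and 3178 CPM. Ts and 2N were apart on both diets once the library of 17-154 is set aside (LFC 0.34 on ChN and 0.62 on ChP with it). The interaction was 0.28 (SE 0.13, 95% confidence interval 0.01 to 0.55, unadjusted p = 0.0451), and without that library it was 0.17 (unadjusted p = 0.14) and not called. Each of 7 other libraries also ended the call when left out, with estimates of 0.25 to 0.28. Without the library of 17-154 the triplicated Mmu16 list had a median of −0.003, with 0 genes called positive and 2 negative.

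Of 29 genes of choline transport and phospholipid synthesis tested, none was called in edgeR at an unadjusted p under 0.05 and 9 were positive (median −0.07). Slc44a1, a choline transporter, had −0.07 (95% confidence interval −0.47 to 0.32), Chka, the first kinase of phosphatidylcholine synthesis, −0.12 (−0.47 to 0.22), and Pcyt1a, its rate-limiting enzyme, 0.05 (−0.65 to 0.76). Pemt, which makes phosphatidylcholine by methylation, averaged 0.65 CPM and could not be resolved (−3.83 to 1.77). The smallest p was that of Pcyt2, the corresponding enzyme for phosphatidylethanolamine (−0.41, SE 0.21, unadjusted p = 0.0524). Pcyt2 stood at 38.8, 40.3, 41.7, 44.4 and 46.3 CPM in Ts ChN and at 23.6, 34.3 and 36.8 CPM in Ts ChP, which did not overlap, and the 2N groups covered 30.4 to 54.9 CPM on ChN and 33.2 to 42.5 CPM on ChP.

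The folate and methionine cycle, where choline's methyl groups enter, had 2 of 29 genes called, both negative, beside 3.22% of all genes, and a median of −0.01. Mtrr, the reductase that keeps methionine synthase active, stood at 7.89, 12.6 and 14.6 CPM in 2N ChN and at 9.06, 9.56, 11.3, 13.7 and 16.2 CPM in Ts ChN. On ChP it stood at 7.17, 20.2 and 27.3 CPM in 2N and at 5.31, 10.2 and 13.6 CPM in Ts. The genotypes covered 1 range on ChN, and on ChP all but 1 of the 2N mice were above every Ts mouse (LFC −0.01 on ChN and −0.91 on ChP, interaction −0.90, SE 0.36, unadjusted p = 0.0169). The call ended without the 10 CA2-rich libraries (−0.77, unadjusted p = 0.072) and without mouse 16-357 of Ts ChN (−0.74, unadjusted p = 0.0551). Amt, the aminomethyltransferase of glycine cleavage, averaged 7.28 CPM and had −1.28 (SE 0.56, unadjusted p = 0.0269), and 4 of the 27 fits that left out 1 library did not call it. Mat2a, which makes S-adenosylmethionine, had −0.13 (95% confidence interval −0.54 to 0.28).

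Among enzymes of methyl marks, 1 of 20 DNA methylation genes was called, Gadd45a, at a mean of 1.5 CPM (2.10, SE 1.0, unadjusted p = 0.0424, called in 15 of the 27 fits that left out 1 library), and Dnmt3a, a de novo DNA methyltransferase, had −0.03 (95% confidence interval −0.52 to 0.46). Of 26 histone methyltransferase genes 3 were called, 2 positive and 1 negative, beside 3.22% of all genes, with a median over the list of 0.02. Ezh2, the catalytic subunit of Polycomb complex PRC2, stood at 3.47 to 6.52 CPM in 2N ChN and 1.74 to 3.48 CPM in Ts ChN, with wide overlap on ChP (1.37, SE 0.59, unadjusted p = 0.026), whereas its partner Suz12 had −0.57 (SE 0.28, unadjusted p = 0.049). Kmt2c, a histone H3 lysine 4 methyltransferase, had 0.33 (SE 0.15, unadjusted p = 0.0308), and it was not called without mouse 16-357 of Ts ChN (0.31, unadjusted p = 0.0513) or 17-56 of 2N ChN (0.27, unadjusted p = 0.0752).

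Of 16 acetylcholine receptor and turnover genes none was called in edgeR at an unadjusted p under 0.05. Chrm1, the main muscarinic receptor of CA1 PNs, had 0.02 (95% confidence interval −0.24 to 0.29) and Chrna7, the α7 nicotinic receptor, 0.22 (−0.46 to 0.90). None of 9 neurotrophin genes was called either. Bdnf had 0.26 (−0.28 to 0.80) and its receptor Ntrk2 0.18 (−0.05 to 0.41).

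Few genes of synapses and excitability were called. In edgeR at an unadjusted p under 0.05, none was called among 26 AMPA and kainate receptor genes, 11 NMDA and metabotropic glutamate receptor genes (median −0.13), 17 GABA receptor genes, 38 vesicle release genes, 30 vesicle endocytosis genes, 29 endosome and retromer genes, or 28 calcium, sodium and HCN channel genes. The GABA receptor list leaned to negative values, with 3 of 17 positive and a median of −0.16, and Gabra2 had −0.28 (SE 0.19) and Nlgn2, an adhesion molecule of inhibitory synapses, −0.24 (SE 0.16). 1 of 37 genes of PKA, calmodulin and calcineurin was called, beside 3.22% of all genes. It was Calm2, which encodes calmodulin (0.40, SE 0.18, unadjusted p = 0.0292). The call ended without the library labelled 2N of mouse 17-154 (0.35, unadjusted p = 0.0548) or that of 17-56 (0.31, unadjusted p = 0.0796). No immediate early gene of 20 was called (median 0.04).

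1 of 47 potassium channel genes was called, beside 3.22% of all genes. Kcnk3 (TASK-1), a leak channel that sets the resting potential, stood at 3.24, 5.32 and 6.77 CPM in 2N ChN and at 4.78, 7.83, 9.06, 10.04 and 12.2 CPM in Ts ChN. In 2N ChP it stood at 4.86, 10.2 and 13.4 CPM and in Ts ChP at 2.95, 6.29 and 8.59 CPM. The order of the genotypes differed between the diets, with overlap on each (interaction −1.50, SE 0.44, unadjusted p = 0.00172). All these levels are a few reads per library, and without the 10 CA2-rich libraries the gene was not called (−1.07, unadjusted p = 0.0853).

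Lists of the ribosome and of protein folding leaned to positive values, and so did others. Positive were 52 of 78 nuclear genes of oxidative phosphorylation, 29 of 42 of glycolysis and the TCA cycle, 24 of 36 cholesterol genes and 14 of 20 immediate early genes. The lean was thus not particular to the ribosome and folding lists. Of 80 cytosolic ribosomal protein genes 56 were positive, with a median of 0.18, and 3 were called, among them Rpl12 (0.80, SE 0.32, unadjusted p = 0.0171) and Rpl37 (0.64, SE 0.29, unadjusted p = 0.0365). The 3 genes were 3.75% of the list, near the 3.22% of all genes. Leaving out mouse 17-21 raised the number of cytosolic ribosomal proteins called to 12 and leaving out the CA2-rich libraries to 10, and the median lay between 0.11 and 0.31 in every setting. The number of all genes called rose in both of these fits too, from 523 to 604 without mouse 17-21. In CA3 PNs 56 of the same 80 were positive (median 0.12) and in DG granule cells 34 (median −0.05). Whether the lean of this list in CA1 is separate from that of the snoRNA genes, measured in the same libraries, was not tested. Rpl12 stood at 35.4, 65.5 and 80.02 CPM in 2N ChN and at 30.9, 32.2, 47.0, 52.2 and 63.3 CPM in Ts ChN. It stood at 20.3, 50.1 and 69.9 CPM in 2N ChP and at 46.9, 61.6 and 92.2 CPM in Ts ChP, so all 4 groups overlapped.

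Of 33 chaperone genes 24 were positive (median 0.14), and Hsp90ab1, the constitutive cytosolic HSP90, was called (0.38, SE 0.18, unadjusted p = 0.0435). Its level was 2097, 2698 and 3207 CPM in 2N ChN and 1795, 2174, 2330, 2342 and 2603 CPM in Ts ChN, and it was called in 16 of the 27 fits that left out 1 library. Of 42 proteasome genes 2 were called, Psmd6 and Psmd4, a ubiquitin receptor of the regulatory particle (0.54, SE 0.20, unadjusted p = 0.00895). Of 78 nuclear genes of oxidative phosphorylation 2 were called, Ndufa13 of complex I (0.59, SE 0.21, unadjusted p = 0.00867) and Atp5mc2 of the ATP synthase ring (1.90, SE 0.78, unadjusted p = 0.0192, mean 3.65 CPM, and 1.56 with unadjusted p = 0.0546 without mouse 15-145 of 2N ChN), while none of the 7 mitochondrially encoded genes was. Pcx, pyruvate carboxylase, was the 1 gene of 42 called in glycolysis and the TCA cycle (0.56, SE 0.27, unadjusted p = 0.0469, called in 14 of the 27 fits that left out 1 library). The shares called were 3.03% for chaperones, 4.76% for the proteasome, 2.56% for nuclear oxidative phosphorylation and 2.38% for glycolysis and the TCA cycle. These shares were near the 3.22% of all genes.

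Ide, which degrades insulin and amyloid-β, stood at 14.0, 19.2 and 38.3 CPM in 2N ChN and at 29.6, 31.7, 32.2, 37.0 and 43.3 CPM in Ts ChN. On ChP the ranges were 21.5 to 48.0 CPM in 2N and 20.9 to 36.7 CPM in Ts, and mouse 17-21 was the single 2N ChN library inside the Ts range (interaction −0.71, SE 0.29, unadjusted p = 0.0206). The call ended without mouse 17-172 of 2N ChN (−0.59, unadjusted p = 0.0538) or 16-90 of 2N ChP (−0.57, unadjusted p = 0.0599). Ide and App were the 2 called of 19 amyloid precursor processing genes, in opposite directions, beside 3.22% of all genes. Gabarapl2 of autophagy (−0.44, SE 0.21), Gss of glutathione synthesis (−1.07, SE 0.53) and Celsr3 of planar polarity (−0.42, SE 0.21) were the single called genes of 55, 28 and 36, and they kept the call in 10, 7 and 6 of the 27 fits that left out 1 library. None of 36 cholesterol genes was called (median 0.11).

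**Figure D5:**
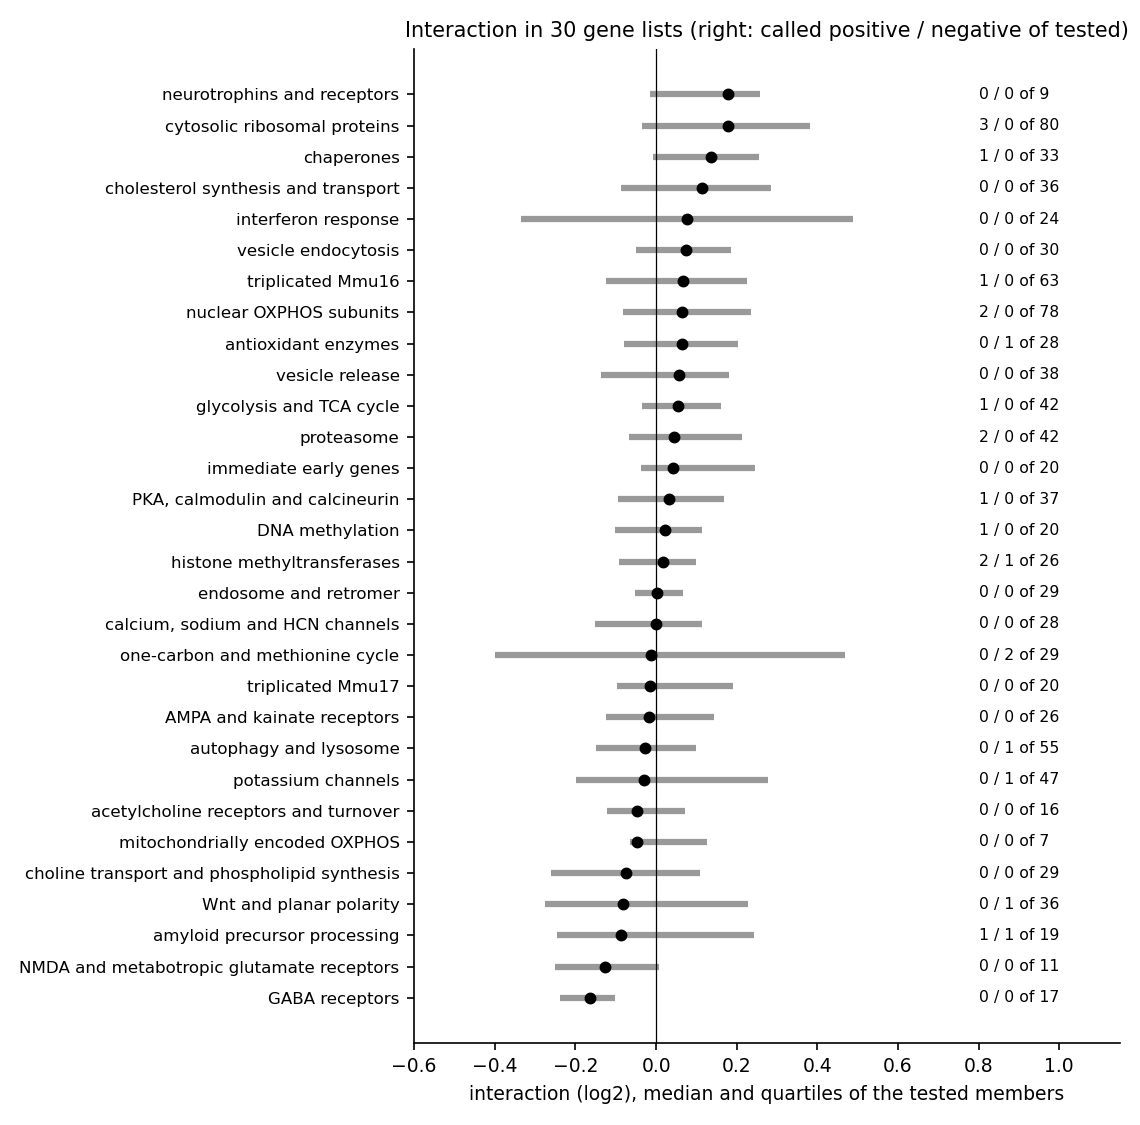
Median (point) and quartiles (bar) of the interaction (log2) over the tested members of 30 gene lists, with the number called positive and negative at the right. No list has a median beyond 0.18 in either direction. The ribosomal protein list, with 3 positive calls of 80, and the neurotrophin list, with 0 of 9, lie at the positive end.

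The same interaction was called for 739 of 16435 genes in CA3 PNs (4.50%) and 656 of 16537 in DG granule cells (3.97%), with none after adjustment in edgeR. Of the CA1 genes called and tested there, 20 of 476 (4.20%) were called in CA3, 10 of them with the same sign, and 22 of 473 (4.65%) in DG, 14 with the same sign, beside 4.50% and 3.97% of all genes. Those in DG included Fam107a (0.76, SE 0.25) and Tbca (0.73, SE 0.33). The difference between the CA1 and the CA3 interaction was called for 1003 of 20382 genes (4.92%) and that between CA1 and DG for 976 (4.79%), none after adjustment in edgeR.

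For several of the genes described, the CA1 value differed from both others before adjustment. Their choice by a small p in CA1 favours such differences, so the values below are only descriptive. Rbm17 differed by 0.97 from CA3 (SE 0.30, unadjusted p = 0.00155) and by 1.05 from DG (SE 0.30, unadjusted p = 0.000713). Evi5l, whose CA3 value was −0.34, differed by 0.93 (SE 0.27) and 0.86 (SE 0.28). Kcnk3 differed by −3.01 (SE 0.88) from CA3 and −2.79 (SE 0.78) from DG, where it averaged only 1.96 and 4.95 CPM. Snora68 differed by 1.87 (SE 0.94, unadjusted p = 0.0496) from CA3 and by 2.60 (SE 0.90, unadjusted p = 0.00514) from DG, and Arsb by −0.68 (SE 0.25) and −0.71 (SE 0.25). The App interaction was −0.12 (SE 0.08) in CA3 and −0.07 (SE 0.08) in DG, where the SE was smaller than in CA1. Leng8, Ttc13 and Gm37899 were negative in all 3 populations, and for them the CA1 value was not called different from either.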

How the data were processed

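Laser-captured CA1 PNs were profiled by stranded total RNA-seq in 27 mice. Per the labels and the study's methods, the authors checked reads with FastQC 0.11.9, trimmed them with Trimmomatic 0.39 where needed, aligned them with STAR to GRCm39 (the labels also list mm10), ran Picard 2.26.2 and deposited RSEM expected counts per gene. Whether counting used the strand is not given in the sources used here. The study's covariates (RNA concentration and Picard measures) were not used here.

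Deposited values were rounded to integers, a gene was kept if it passed 0.1 CPM in 10 or more of the 27 libraries, libraries were scaled by TMM, and edgeR 4.0.16 in R 4.3.3 (robust quasi-likelihood) tested (Ts ChP − 2N ChP) − (Ts ChN − 2N ChN) in 1 model of 4 group means without covariates. A gene is called at an unadjusted p under 0.05, the study's threshold, with the Benjamini-Hochberg count beside it. Gene names and classes came from the GENCODE annotation of GRCm39 and matched 56310 of 57010 gene IDs. CPM and group means use TMM-scaled library sizes. Intervals are 95% and cover the spread between these libraries, each of which came from 1 mouse.

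The named genes were any with an adjusted p under 0.05 (none), the 12 with the smallest p in each direction at a mean of at least 10 CPM, 20 genes of dosage, choline use and cholinergic input, and of each of 30 lists the 2 members with the smallest p (some results under this rule are not reported here), and others named (snoRNA genes, Rn18s-rs5, Rpl37, Suz12, Cx3cr1 and 4 triplicated genes) were chosen after their values were seen. The genes and lists were chosen with earlier results of these data known. The CA3 and DG libraries were fitted the same way, and all 3 populations in 1 model of 12 groups. The CA3 library of mouse 15-145 was left out because its label (Ts) goes against that mouse's other labels (2N). Libraries of different populations came from the same mice, so the mouse is the pairing across populations, and deviations of same-mouse libraries from their group means correlated at a median of 0.11 between CA1 and CA3 (24 mice) and 0.08 between CA1 and DG (27 mice). Within CA1 each mouse gave 1 library. Alternatives used DESeq2 1.42.0, limma 3.58.1, sva 3.50.0, other scalings and filters, covariates, and fits without single libraries. The test was tried on simulated counts first.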

Additional observations from a re-analysis of the deposited data

Results flagged for a closer look

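In 9 of 124 groups of 4 to 10 libraries checked, 1 library lay far from the rest of its group by Dixon's criterion, which chance gives in about 1 group in 20. App was at 3155 CPM in the library labelled 2N of mouse 17-154 (2N ChN), far above the other 5 libraries of that group, and the mean of the triplicated Mmu16 genes was 5.58 log2 CPM in the same library. In 2N ChP, App was at 2244 CPM in mouse 15-336 and the Mmu16 mean at 5.17 in mouse 16-90, each the highest of its group and below every Ts library. The CA2 marker mean was 7.21 log2 CPM in mouse 16-357, the 1 CA2-rich library of Ts ChN, and the summed snoRNA level was 2915 CPM in mouse 17-03 of Ts ChP. Among single genes, Lrfn4 was low at 20.9 CPM in mouse 17-173 and Tbca high at 13.9 CPM in mouse 17-153, both of Ts ChN, and Smc1a was low at 80.6 CPM in mouse 15-334 of 2N ChP. Lrfn4, Tbca and Smc1a stayed called without those libraries, which their choice by the smallest p favours.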

How the results depend on the processing

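The number of genes called for the CA1 interaction was 523 and ranged from 452 to 639 with 1 library left out, 233 to 355 positive and 193 to 286 negative, with 0 adjusted calls in each of these fits. It was 416 with DESeq2 (1 gene with no adjusted p), 602 with limma-voom, 531 with DESeq2 size factors, 583 without mice 17-21 and 17-154, 734 with the CA2 marker mean as a covariate and 737 without the CA2-rich libraries. It was 294 (157 positive and 137 negative) with edgeR's stricter count filter, which tested 10072 genes, and 994 (551 positive and 443 negative) with no filter, which tested 25845. Positive calls were 424 with sample quality weights, and negative calls were 373 with library totals in place of TMM and 380 with 1 surrogate variable. Library totals made 34.0% of the calls positive instead of 52.8% and moved the median of all genes to −0.07. 1 gene, Snora68, passed adjustment in each of 2 fits chosen after seeing the data, those without the CA2-rich libraries and without 17-154 with the CA2 covariate. The causes of these differences were not tested.

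The difference between populations, blocked by mouse as the pairing, was called for 724 genes against CA3 and 750 against DG, instead of 1003 and 976, with 0 after adjustment. With the stricter filter it was 414 and 409. Kept under its label, the CA3 library of 15-145 gave 1097 and 986. Within CA1 no paired analysis was possible because each mouse gave 1 library. Among the 43 named genes called, 599 estimates under alternatives other than leaving out 1 library kept their direction, of which 70 were no longer called, and no named gene that was called reversed. The calls were made by p in the same libraries, which favours this. Low depth limits genes under 10 CPM, as the intervals show.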
